A study of Mus musculus with 10 samples.

Results

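The genes described here are 10 core components of planar cell polarity (PCP): the atypical cadherins Celsr1, Celsr2 and Celsr3, the transmembrane proteins Vangl1 and Vangl2, the receptors Fzd3 and Fzd6, and the cytoplasmic proteins Prickle1, Prickle2 and Dvl1. They were chosen by name, and all 10 were found among the 54150 gene symbols of the expression table. A mean of at least 1 FPKM (fragments counted on a gene, divided by exon length in kilobases and by library size) in at least 1 group was reached by 9 of the 10, all but Celsr3, and by 15816 symbols in all.

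PCP is the alignment of cells within the plane of an epithelium. Celsr cadherins bridge neighboring cells, with Fzd and Dvl gathered on one face of a cell and Vangl and Prickle on the face opposite. In multiciliated cells this asymmetry orients the basal bodies, so that motile cilia beat in a common direction, and in the mouse oviduct Celsr1 is known to be needed for aligned cilia and for straight epithelial folds.

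The 10 RNA-seq libraries were made from organoids that epithelial cells of the mouse oviduct form in Matrigel. PgrKO organoids came from PgrCre/+ Cdc42 f/f mice, in which Cre is made where the progesterone receptor gene is active. AdKO organoids were Cdc42 f/f organoids given an adenovirus (Ad-Cre) that carries Cre behind the CMV promoter, and F/F organoids were Cdc42 f/f without Cre. In each genotype, Diff organoids received 10 nM estrogen (E2) and 1 μM DBZ, which blocks Notch signaling, over 6 days so that multiciliated cells form, and Con organoids were undifferentiated controls. PgrKO_Diff, PgrKO_Con, F/F_Diff and F/F_Con had 2 libraries each, AdKO_Diff and AdKO_Con had 1 each, and no library of organoids given a virus without Cre was analysed here. Nothing in the labels says that the libraries of a group came from separate cultures or mice, so p-values here cover the spread among these libraries alone, which may be technical.

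The promoters of Celsr2 and Dvl1 are shown because these were the members that passed the test in a comparison between groups. Both are 300 bases on GRCm38.p6 (mm10) from RefSeq, from 250 bases before to 50 bases after the start of the gene, and 6 of the 10 members had an entry. Capitals mark matches on either strand to 3 motifs: TGGGAA, the core of the site bound by RBPJ, the DNA-binding partner of Notch, GTTGCC, a core site of the RFX factors of ciliated cells, and GGTCA followed by any 3 bases and TGACC, an estrogen response element.
Celsr2, chr3:108415530-108415829, minus strand: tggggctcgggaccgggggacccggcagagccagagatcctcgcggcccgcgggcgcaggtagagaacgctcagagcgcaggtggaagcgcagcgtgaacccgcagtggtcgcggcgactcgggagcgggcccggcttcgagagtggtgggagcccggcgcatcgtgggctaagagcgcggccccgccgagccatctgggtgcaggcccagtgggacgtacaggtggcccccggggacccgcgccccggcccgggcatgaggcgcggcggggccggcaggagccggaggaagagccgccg
Dvl1, chr4:155847152-155847451, plus strand: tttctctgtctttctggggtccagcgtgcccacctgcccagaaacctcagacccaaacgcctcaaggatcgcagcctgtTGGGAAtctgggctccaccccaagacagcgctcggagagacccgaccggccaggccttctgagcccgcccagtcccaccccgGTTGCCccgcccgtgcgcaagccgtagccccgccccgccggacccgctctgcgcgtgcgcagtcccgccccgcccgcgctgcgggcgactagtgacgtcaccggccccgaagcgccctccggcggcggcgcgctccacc
The Celsr2 window held no match to any of the 3 motifs. The Dvl1 window held 1 TGGGAA and 1 GTTGCC, and matches to these were present in 25.6% and 12.5% of 32851 mouse promoters of this length. The estrogen response element was present in 0.0700% of them and in none of the 10 promoter entries of the members. A match of this kind describes letters and not binding.

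The reads behind the values numbered 11744271 to 17330672 per library, and the log2 values of replicate libraries correlated at 0.935 to 0.966 across genes. Cdc42, which was targeted, had 113 and 134 FPKM in PgrKO_Diff, 104 and 105 FPKM in PgrKO_Con, 87.9 FPKM in AdKO_Diff, 81.6 FPKM in AdKO_Con, 125 and 126 FPKM in F/F_Diff and 118 and 133 FPKM in F/F_Con. Its level in the PgrKO libraries thus overlapped that in F/F libraries, and 1 value per gene does not show whether an exon is missing from the transcripts. All 7 epithelial markers were above 1 FPKM in every library (summed level 1712 to 3077 FPKM). The summed level of 18 motile cilium genes was 98.4 and 114 FPKM in PgrKO_Diff and 119 and 338 FPKM in PgrKO_Con, 396 FPKM in AdKO_Diff and 256 FPKM in AdKO_Con, and 1703 and 2047 FPKM in F/F_Diff and 405 and 309 FPKM in F/F_Con. Markers of some other cell types were higher in PgrKO libraries. The 10 fibroblast genes summed to 96.8 to 386 FPKM in the 4 PgrKO libraries. In the 6 AdKO and F/F libraries they summed to 0.659 to 16.5 FPKM, with Lum listed at 0 in every one. The 8 endothelial genes summed to 10.2 to 37.8 FPKM in PgrKO libraries and 0.501 to 3.16 FPKM elsewhere. Sums of 6 smooth muscle genes overlapped, at 7.18 to 23.9 FPKM in PgrKO libraries and 1.15 to 8.88 FPKM elsewhere. Those of 4 mesothelial genes were mostly lower in PgrKO, with overlap, at 22.8 to 135 FPKM against 55.6 to 281 FPKM. The 13 leukocyte genes summed to 1554 FPKM in PgrKO_Diff replicate 2 and 1148 FPKM in PgrKO_Con replicate 2. They summed to 369 FPKM in PgrKO_Diff replicate 1 and 338 FPKM in PgrKO_Con replicate 1, against 71.6 to 207 FPKM in the AdKO and F/F libraries. The PgrKO libraries of replicate 2 stood furthest apart, so results that rest on them are also given without them.

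**Figure D1:**
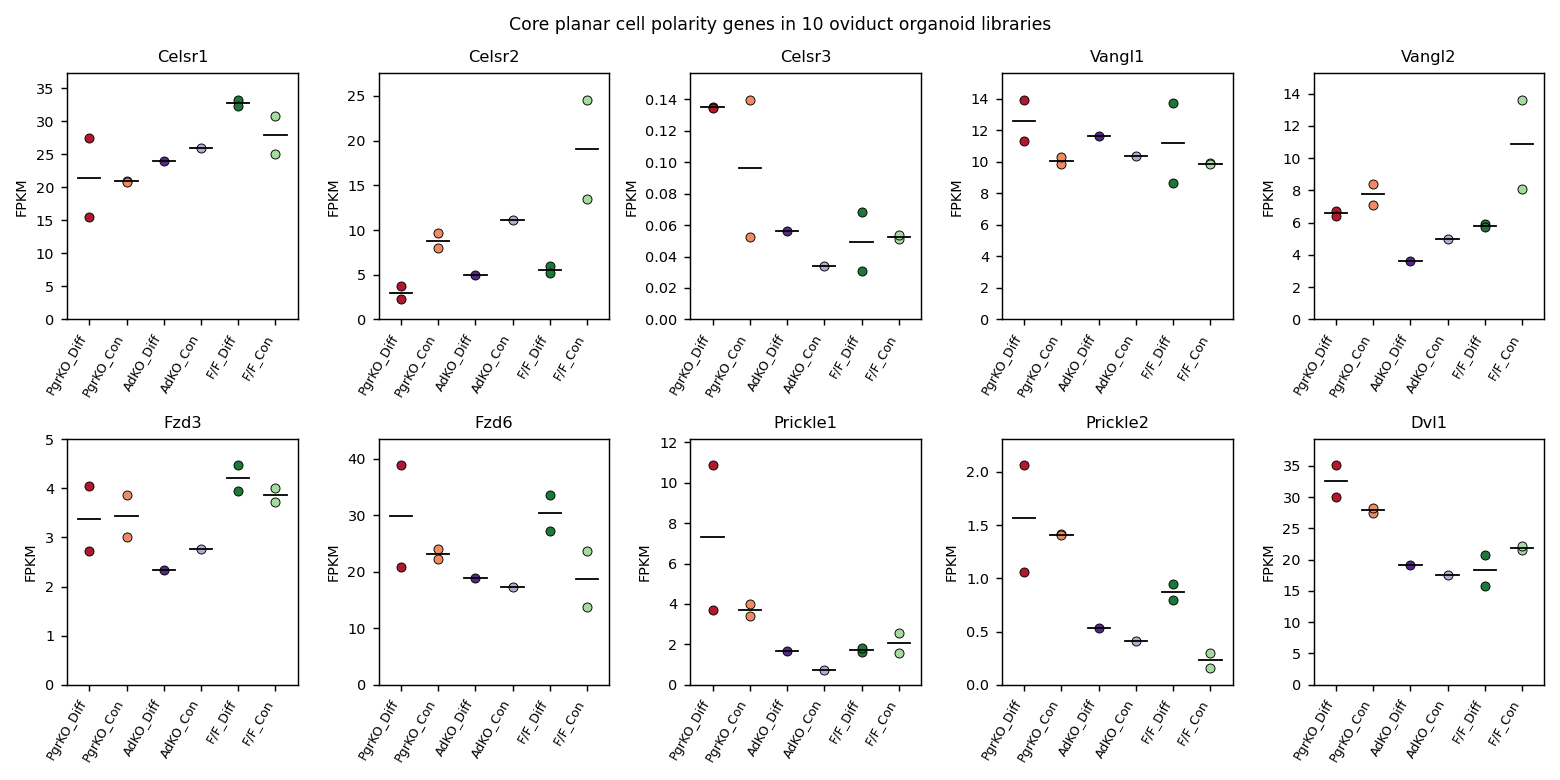
FPKM (y axis, linear, from 0) of the 10 core PCP genes in each organoid library (points) by group (x axis), with the group mean as a line, where groups with 1 library have 1 point. Celsr2 lies below 6 FPKM in every Diff library and above 7 FPKM in every Con library, and Prickle1, Prickle2 and Dvl1 are highest in the PgrKO libraries.

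Among the Celsr cadherins, which hold the polarity complexes of adjacent cells together, Celsr2 was lower in differentiated organoids of each genotype. Celsr2 (ENSMUSG00000068740, chr3:108390851-108415552) was at 5.93 and 5.19 FPKM in F/F_Diff, against 24.6 and 13.5 FPKM in F/F_Con. In PgrKO organoids it was at 3.75 and 2.27 FPKM in Diff and 7.95 and 9.61 FPKM in Con, and in AdKO organoids at 5.02 FPKM in Diff and 11.2 FPKM in Con. No Diff library overlapped a Con library, within a genotype or over all 10. Of the 9 members tested Celsr2 was the only one whose 5 Diff libraries all lay below the 5 Con libraries, and 1.94% of the 15816 genes did so. No member had all Diff libraries above all Con libraries, as 1.33% of genes did.

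The comparisons between groups used limma on log2(FPKM + 1), with the 10 libraries in 1 fit, and a gene passed at a Benjamini-Hochberg adjusted p under 0.05 over all 15816 genes. On this scale Celsr2 fell by 1.55 in F/F_Diff relative to F/F_Con (log2, standard error 0.31, adjusted p = 0.0229 from limma). The adjusted p was 0.0606 to 0.128 when any 1 of the 4 F/F libraries was left out and 0.0595 without the PgrKO libraries of replicate 2, with a fall of 1.14 to 1.97 in each case. In PgrKO_Diff relative to PgrKO_Con the log2 difference was −1.31 (95% interval −2.07 to −0.54), which did not pass (adjusted p = 0.486 from limma), and no gene passed in that comparison. The difference between the PgrKO and the F/F response was 0.25 (95% interval −0.83 to 1.33, adjusted p = 0.789 from limma). Between AdKO_Diff and AdKO_Con, with 1 library each and no test, it was −1.01. The summed level of 10 proliferation genes was, like Celsr2, lower in Diff than in Con within each genotype. It was 77.7 and 56.7 FPKM in PgrKO_Diff and 109 and 88.0 FPKM in PgrKO_Con. AdKO_Diff had 57.3 FPKM and AdKO_Con 120 FPKM, and F/F_Diff had 34.2 and 45.2 FPKM and F/F_Con 88.3 and 77.4 FPKM. Between PgrKO_Diff and F/F_Diff the proliferation sum was higher in PgrKO_Diff and Celsr2 was lower there. The part of proliferation in the Celsr2 difference was not tested. In these bulk libraries fewer cells that express a gene and less RNA per cell cannot be told apart.

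Celsr2 was also at lower values in PgrKO than in F/F organoids, without passing the test. The log2 difference was −0.73 between PgrKO_Diff and F/F_Diff (95% interval −1.50 to 0.03, adjusted p = 0.134 from limma) and −0.98 between PgrKO_Con and F/F_Con (95% interval −1.74 to −0.22, adjusted p = 0.155 from limma). The first was −0.47 without PgrKO_Diff replicate 2, and the second was −0.57 without F/F_Con replicate 1.

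Celsr1 (ENSMUSG00000016028, chr15:85898929-86033777), the member that mouse mutants tie to oviduct polarity, was the most abundant Celsr gene in every library. It was at 33.3 and 32.3 FPKM in F/F_Diff and 30.8 and 25.0 FPKM in F/F_Con, a log2 difference of 0.23 (95% interval −0.40 to 0.86). In PgrKO_Diff it was at 27.4 and 15.5 FPKM and in PgrKO_Con at 20.9 and 20.8 FPKM, while AdKO_Diff and AdKO_Con had 24.0 and 25.9 FPKM. The PgrKO_Diff libraries lay below both F/F_Diff libraries, but their difference of −0.64 did not pass (95% interval −1.27 to −0.01, adjusted p = 0.116 from limma). It was −1.03 without PgrKO_Diff replicate 1 (adjusted p = 0.0170 from limma) and −0.25 without PgrKO_Diff replicate 2, so this value was set by which PgrKO_Diff library was kept.

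Celsr3 (ENSMUSG00000023473, chr9:108826320-108852969), a paralog best known from axon guidance in the mouse brain, was near the limit of detection, at 0.0307 to 0.140 FPKM in all 10 libraries, which were 5 to 26 reads each. It was left out of the tests by the filter on low values.

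The ratio of Celsr2 to Celsr1 within a library, which does not depend on the scaling of that library, separated Diff from Con. It was 0.137 and 0.146 in PgrKO_Diff and 0.379 and 0.462 in PgrKO_Con, 0.209 in AdKO_Diff and 0.431 in AdKO_Con, and 0.178 and 0.161 in F/F_Diff and 0.798 and 0.538 in F/F_Con. Every Diff value lay below every Con value.

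**Figure D2:**
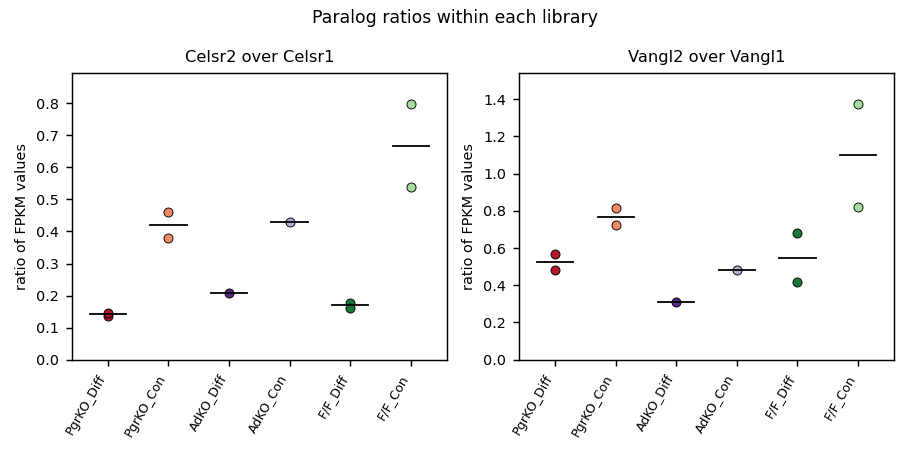
Ratio of the FPKM values of Celsr2 to Celsr1 (left) and of Vangl2 to Vangl1 (right) in each library (points, on a linear y axis from 0) by group (x axis), with group means as lines. The Celsr2 ratio is at most 0.209 in Diff libraries and at least 0.379 in Con libraries, and the Vangl2 ratio is lower in Diff than in Con within each genotype.

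Vangl1 and Vangl2 are the transmembrane partners of Prickle on the face opposite to Fzd. Vangl2 (ENSMUSG00000026556, chr1:172000960-172028444), the paralog whose loss in the mouse leaves the neural tube open, was at 5.92 and 5.72 FPKM in F/F_Diff, against 13.6 and 8.08 FPKM in F/F_Con. PgrKO_Diff had 6.74 and 6.42 FPKM and PgrKO_Con 7.13 and 8.39 FPKM, and AdKO_Diff had 3.60 FPKM and AdKO_Con 5.02 FPKM. Diff values were below Con values within each genotype, with overlap only across genotypes. The F/F difference of −0.76 did not pass the test (95% interval −1.33 to −0.19, adjusted p = 0.0709 from limma), nor did that of −0.94 between AdKO_Con and F/F_Con (95% interval −1.64 to −0.24, adjusted p = 0.200 from limma), where the lone AdKO_Con library was assumed to vary like the others. Both rested on F/F_Con replicate 1, the library highest in Vangl2: without it they were −0.41 and −0.59.

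Vangl1 (ENSMUSG00000027860, chr3:102153583-102204693) was at 8.69 to 14.0 FPKM in all 10 libraries, the narrowest range of the members, its highest library being 1.61 times its lowest. The 95% interval of its log2 difference was −0.39 to 0.66 for F/F_Diff against F/F_Con and −0.34 to 0.71 for PgrKO_Diff against F/F_Diff. The ratio of Vangl2 to Vangl1 was 0.483 and 0.569 in PgrKO_Diff and 0.724 and 0.814 in PgrKO_Con, 0.308 in AdKO_Diff and 0.482 in AdKO_Con, and 0.681 and 0.417 in F/F_Diff and 1.37 and 0.821 in F/F_Con. It was lower in Diff than in Con within each genotype, while values of different genotypes overlapped.

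Fzd3 and Fzd6 are the Frizzled receptors that act together in mouse PCP, for instance in hair and neural tube. Fzd6 (ENSMUSG00000022297, chr15:39006034-39038188) was the more abundant, at 27.2 and 33.6 FPKM in F/F_Diff and 23.7 and 13.8 FPKM in F/F_Con. The PgrKO_Diff libraries had 38.9 and 20.8 FPKM and the PgrKO_Con libraries 24.0 and 22.2 FPKM, and AdKO_Diff and AdKO_Con had 18.9 and 17.2 FPKM. The F/F difference of 0.71 did not pass (95% interval −0.15 to 1.57, adjusted p = 0.214 from limma), and was 1.08 without F/F_Con replicate 1 and 0.34 without F/F_Con replicate 2.

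Fzd3 (ENSMUSG00000007989, chr14:65192449-65262463) was at 2.33 to 4.48 FPKM. It was at 2.33 FPKM in AdKO_Diff and 2.77 FPKM in AdKO_Con, and 3.95 and 4.48 FPKM in F/F_Diff and 4.01 and 3.72 FPKM in F/F_Con. PgrKO_Diff had 2.72 and 4.05 FPKM and PgrKO_Con 3.01 and 3.87 FPKM, so PgrKO libraries overlapped those of F/F. The difference between AdKO_Diff and F/F_Diff was −0.64 (95% interval −1.24 to −0.05, adjusted p = 0.168 from limma) and did not pass.

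Prickle1 and Prickle2 are LIM-domain proteins that bind Vangl from inside the cell. Prickle1 (ENSMUSG00000036158, chr15:93499114-93595891) was at 3.70 and 10.9 FPKM in PgrKO_Diff and 3.99 and 3.42 FPKM in PgrKO_Con. AdKO_Diff had 1.67 FPKM, AdKO_Con 0.742 FPKM, F/F_Diff 1.61 and 1.83 FPKM and F/F_Con 1.59 and 2.56 FPKM. The 4 PgrKO libraries were thus above all 6 others, and the highest value, in PgrKO_Diff replicate 2, was 14.7 times the lowest. Between PgrKO_Diff and F/F_Diff the log2 difference was 1.46 (95% interval 0.41 to 2.51, adjusted p = 0.0515 from limma), just short of the threshold. It was 2.13 (adjusted p = 0.0129 from limma) without PgrKO_Diff replicate 1 and 0.79 (adjusted p = 0.0930 from limma) without PgrKO_Diff replicate 2. It also passed without either AdKO library (1.46, adjusted p = 0.0481 and 0.0489 from limma).

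Prickle2 (ENSMUSG00000030020, chr6:92370908-92706155) was low, with 19 to 209 reads per library. It was at 1.06 and 2.07 FPKM in PgrKO_Diff and 1.42 and 1.40 FPKM in PgrKO_Con, at 0.538 FPKM in AdKO_Diff and 0.412 FPKM in AdKO_Con, and at 0.943 and 0.793 FPKM in F/F_Diff and 0.298 and 0.159 FPKM in F/F_Con. PgrKO libraries were above all others, and F/F_Diff was above F/F_Con. Neither difference passed: it was 0.97 between PgrKO_Con and F/F_Con (95% interval 0.44 to 1.51, adjusted p = 0.0909 from limma) and 0.61 between F/F_Diff and F/F_Con (95% interval 0.07 to 1.14, adjusted p = 0.109 from limma). With 1 library left out the second ran from 0.52 to 0.69. Because 1 was added to every value, these understate the change of so low a gene.

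Fibroblast markers were high in the same libraries as Prickle1. The 10 fibroblast genes summed to 96.8 and 386 FPKM in PgrKO_Diff and 109 and 149 FPKM in PgrKO_Con, and to at most 16.5 FPKM elsewhere. Dcn was at 21.5 and 97.9 FPKM in PgrKO_Diff and 11.2 and 26.5 FPKM in PgrKO_Con, against at most 0.420 FPKM in AdKO and F/F libraries, and Col1a2 was at 18.4 and 76.6 FPKM and at 21.2 and 32.7 FPKM in these PgrKO groups, against at most 3.84 FPKM. At least 9 of the 10 were above 1 FPKM in each PgrKO library. Dchs1, an atypical cadherin of the Fat and Dachsous branch of planar polarity, and Ror2, a receptor for Wnt5a, had the PgrKO libraries in the same order as the summed fibroblast genes and were singled out after their values were seen. Dchs1 was at 1.05 and 4.16 FPKM in PgrKO_Diff and 1.65 and 2.24 FPKM in PgrKO_Con, and at no more than 0.255 FPKM in the other libraries. Ror2 was at 1.89 and 9.42 FPKM in PgrKO_Diff and 2.52 and 3.07 FPKM in PgrKO_Con, and at no more than 0.487 FPKM elsewhere. Prickle1 and Prickle2 were also highest in PgrKO_Diff replicate 2. Prickle2 had the other PgrKO libraries in the order of the fibroblast sum, but for a near tie between the PgrKO_Con libraries. These had 1.42 and 1.40 FPKM of Prickle2, from 174 and 172 reads. Among the PgrKO libraries Prickle1 was lowest in PgrKO_Con replicate 2, which was second in the fibroblast sum. Endothelial genes were higher in the same libraries too, at a sum of 10.2 to 37.8 FPKM against at most 3.16 FPKM elsewhere. Which part fibroblasts or other cell types have in the Prickle1 and Prickle2 values was not tested.

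**Figure D3:**
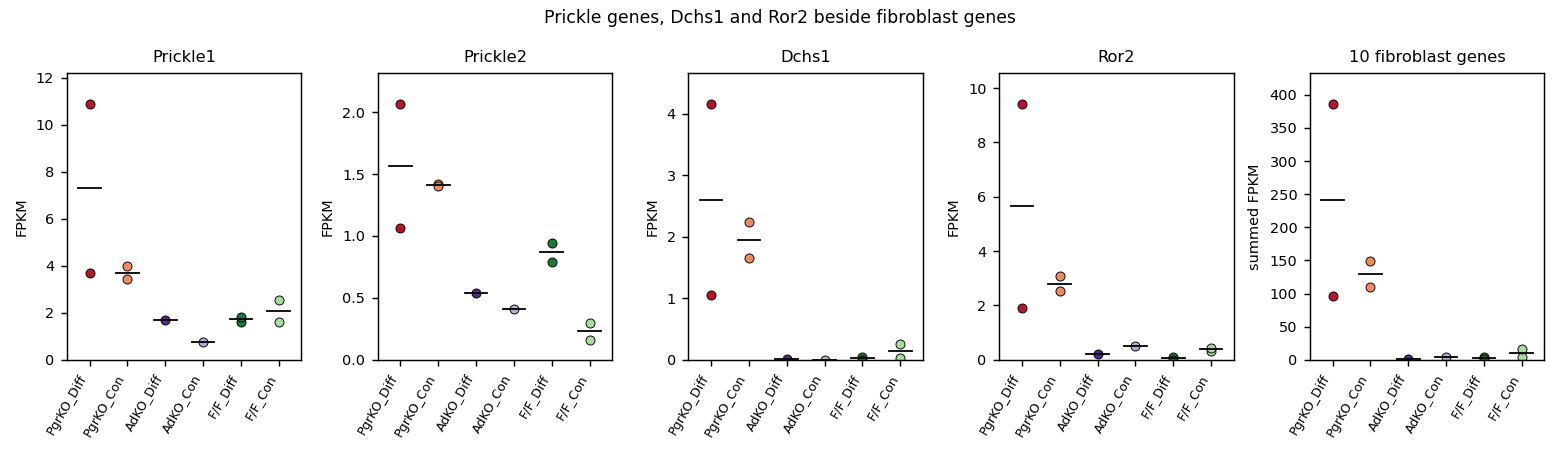
FPKM of Prickle1, Prickle2, Dchs1 and Ror2 and the summed FPKM of 10 fibroblast genes (y axes, linear, from 0) in each library (points) by group (x axis), with group means as lines. In each panel the 4 PgrKO libraries are above the 6 AdKO and F/F libraries, and PgrKO_Diff replicate 2 is highest.

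Dvl1 (ENSMUSG00000029071, chr4:155847402-155859303), a cytoplasmic protein that carries the Fzd signal in PCP and in canonical Wnt signaling alike, was higher in PgrKO organoids. It was at 30.0 and 35.2 FPKM in PgrKO_Diff, against 20.8 and 15.8 FPKM in F/F_Diff, and at 27.5 and 28.3 FPKM in PgrKO_Con, against 21.5 and 22.1 FPKM in F/F_Con. AdKO_Diff had 19.1 FPKM and AdKO_Con 17.6 FPKM, within the F/F range. Dvl1 rose by 0.81 in PgrKO_Diff relative to F/F_Diff (log2, standard error 0.16, adjusted p = 0.0154 from limma). This call was lost without replicate 2 of F/F_Diff (0.62, adjusted p = 0.0637 from limma), without PgrKO_Diff replicate 2 (0.70, adjusted p = 0.0635 from limma) and without both PgrKO libraries of replicate 2 (0.70, adjusted p = 0.103 from limma). Fibroblast, leukocyte and endothelial markers were higher in the same libraries, and their part was not tested.

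All PgrKO libraries lay above all F/F and AdKO libraries for 3 of the 9 members tested, Prickle1, Prickle2 and Dvl1, and for 6.27% of the 15816 genes. Prickle2 reached a mean of 1 FPKM only in PgrKO_Diff (1.56) and PgrKO_Con (1.41), with at most 0.868 FPKM in the other groups. It thus entered the 9 through the groups where it was high, so its place in this count was partly fixed by the filter. No member had all PgrKO libraries below the rest, as 3.74% of genes did. The other Dvl paralogs followed Dvl1 between PgrKO_Diff and F/F_Diff: Dvl2 was at 5.25 and 7.29 FPKM, against 3.40 and 3.71 FPKM, and Dvl3 at 13.5 and 17.1 FPKM, against 9.09 and 10.2 FPKM. Both passed the test, but not without any 1 F/F or PgrKO_Con library or PgrKO_Diff replicate 2 (adjusted p up to 0.144 for Dvl2 and 0.160 for Dvl3 from limma), and both were named after their values were seen.

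Counted over the members, few passed. Between F/F_Diff and F/F_Con, which asks how E2 and DBZ change organoids that keep Cdc42, 1 of 9 members passed (Celsr2, lower), which is 11.1%, against 19.3% of all genes tested. Between PgrKO_Diff and F/F_Diff 1 of 9 passed (Dvl1, higher), again 11.1%, against 27.1% of all genes. This compares differentiated organoids of genotypes whose libraries also differed in fibroblast and endothelial markers, not the Cdc42 deletion alone. The median log2 difference of the 9 was 0.10 in F/F_Diff against F/F_Con and 0.15 in PgrKO_Diff against F/F_Diff, beside −0.02 and 0.07 over all genes. Neither share was above that of all genes.

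In the remaining comparisons limma called none of the 9. Between PgrKO_Diff and PgrKO_Con 1 of the 9 had an unadjusted p under 0.05, and 0% of all genes passed (0 of 15816, with 1179 at an unadjusted p under 0.05, and 0 with voom on the recovered reads). Between PgrKO_Con and F/F_Con 2 of the 9 and 3462 of all 15816 genes had an unadjusted p under 0.05, and 0.62% of all genes passed. For the PgrKO minus F/F difference of responses it was 0 of the 9 and 3569 of all genes, with 4.41% passing. For AdKO_Con against F/F_Con it was 1 of the 9 and 2573 of all genes, with 0.0506% passing. For AdKO_Diff against F/F_Diff it was 1 of the 9 and 4085 of all genes, with 6.16% passing. Voom called no member in these comparisons either.

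**Figure D4:**
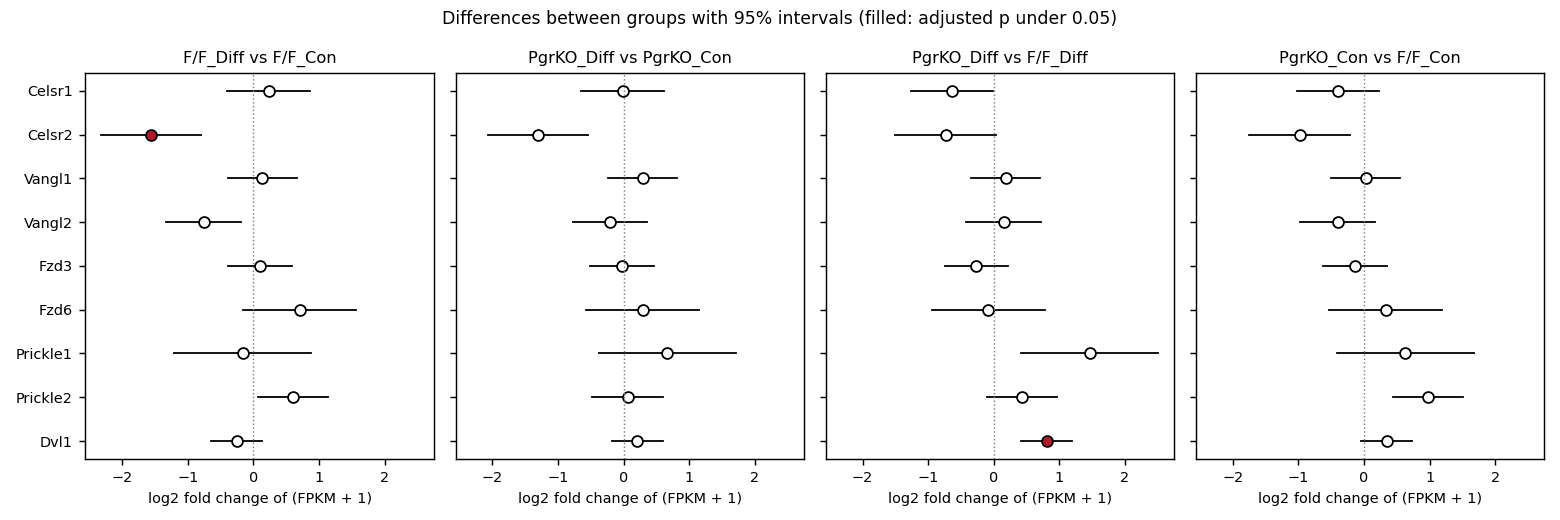
Log2 difference of (FPKM + 1) with its 95% interval (x axis) for the 9 members tested (rows) in 4 comparisons (panels), from limma in 1 fit of all 10 libraries, where filled points passed at an adjusted p under 0.05 over all genes. Celsr2 in F/F_Diff against F/F_Con (−1.55) and Dvl1 in PgrKO_Diff against F/F_Diff (0.81) are the filled points.

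The wider pathway was read through 43 other planar polarity genes, of which 35 passed the filter. Between F/F_Diff and F/F_Con 8 rose and 2 fell, which is 28.6% called, against 19.3% of all genes tested. Between PgrKO_Diff and F/F_Diff 7 were higher and 9 lower, which is 45.7%, against 27.1% of all genes. The 5 CPLANE genes (Intu, Fuz, Wdpcp, Cplane1 and Rsg1), named for ciliogenesis and planar polarity effector, encode proteins that work at the base of the vertebrate cilium. All 5 rose in F/F_Diff relative to F/F_Con (median log2 difference 1.06), and all 5 were lower in PgrKO_Diff than in F/F_Diff (median −1.21), again beside 19.3% and 27.1% of all genes called. These 5 and Cfap126, a cilium gene described below, were thus among the 8 that rose and the 9 that were lower. The other calls in F/F_Diff against F/F_Con were Daam1 and Wnt11, higher, and Fzd7 and Prickle3, lower. The 28.6% therefore rested largely on cilium genes. Rsg1 reached a mean of 1 FPKM in F/F_Diff alone (2.53, with 0.932 in F/F_Con), so it was tested only because it was high there. Dchs1 and Ror2, among the 7 higher in PgrKO_Diff, likewise reached that mean only in PgrKO groups. Their means in the other groups were at most 0.140 and 0.487 FPKM. The places of Rsg1, Dchs1 and Ror2 in these counts were thus partly fixed by the filter.

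Intu was at 9.77 and 11.6 FPKM in F/F_Diff, against 4.55 and 4.38 FPKM in F/F_Con, and rose by 1.09 (adjusted p = 0.0115 from limma). In PgrKO_Diff it was at 2.37 and 3.04 FPKM, a fall of 1.66 relative to F/F_Diff (adjusted p = 0.00288 from limma), and in AdKO_Diff at 3.24 FPKM, a fall of 1.46 (adjusted p = 0.0289 from limma). Wdpcp was at 9.16 and 14.2 FPKM in F/F_Diff and 2.70 and 2.60 FPKM in F/F_Con, and rose by 1.76 (adjusted p = 0.0147 from limma). It was at 1.50 and 1.57 FPKM in PgrKO_Diff, a fall of 2.29 relative to F/F_Diff (adjusted p = 0.00458 from limma). Fuz, Cplane1 and Rsg1, named to complete the list, were at 5.06 and 7.39, 6.41 and 7.27, and 2.98 and 2.07 FPKM in F/F_Diff, against 2.94 and 3.27, 3.26 and 2.32, and 0.981 and 0.883 FPKM in F/F_Con.

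Cfap126 (Flattop), which places basal bodies in the mouse and belongs to the motile cilium itself, had the widest range of these genes. It was at 161 and 170 FPKM in F/F_Diff, against 37.3 and 30.7 FPKM in F/F_Con, and rose by 2.25 (adjusted p = 0.0161 from limma). In PgrKO organoids it was at 7.40 and 6.40 FPKM in Diff and 7.61 and 19.8 FPKM in Con, and in AdKO organoids at 33.5 FPKM in Diff and 21.4 FPKM in Con. Relative to F/F_Diff it fell by 4.40 in PgrKO_Diff (adjusted p = 0.00288 from limma) and by 2.27 in AdKO_Diff (adjusted p = 0.0497 from limma). Its difference of responses (PgrKO minus F/F) was −3.02 (adjusted p = 0.0461 from limma), the only one among the 35 to pass. This call was lost without any 1 of the 4 F/F libraries, PgrKO_Con replicate 2 or either PgrKO_Diff library (adjusted p = 0.0902 to 0.152 from limma), and without both PgrKO libraries of replicate 2 (0.160). For the CPLANE genes that difference was below 0 in 5 of 5, each at an unadjusted p under 0.05 from limma. Rsg1 was among these 5 through its level in F/F_Diff alone. Of all 15816 genes 3569 had such a p, and none of the 5 passed (adjusted p from 0.0504 to 0.157 from limma). The summed motile cilium genes, given above, had the same pattern over the groups.

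These counts rested on single libraries. In F/F_Diff against F/F_Con the 5 CPLANE calls became 0 without replicate 2 of F/F_Con or of F/F_Diff, 1 without F/F_Con replicate 1, and 3 without replicate 1 of F/F_Diff or either PgrKO_Con library, and the 10 calls among all 35 became 0, 0, 1 and 4 when these F/F libraries were left out in that order, where the calls over all genes also fell to between 0 and 1536 of the 3055 made with all libraries. In PgrKO_Diff against F/F_Diff the 5 became 3 without F/F_Diff replicate 2, and the 16 became 5 without that library, 8 without replicate 1 of F/F_Diff and 10 without either F/F_Con library, either PgrKO_Con library or PgrKO_Diff replicate 2. Without both PgrKO libraries of replicate 2, 3 of 5 CPLANE genes passed in either comparison. Of the named calls in F/F_Diff against F/F_Con, Intu was lost without replicate 2 of F/F_Con or of F/F_Diff, Wdpcp without these or replicate 1 of F/F_Con, and Cfap126 and Prickle3 without any 1 of the 4 F/F libraries. In AdKO_Diff against F/F_Diff, Intu was lost without any 1 F/F library and Cfap126 without any 1 F/F or PgrKO_Diff library. The calls of Intu, Wdpcp, Cfap126 and Wnt11 in PgrKO_Diff against F/F_Diff passed without any 1 library.

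**Figure D5:**
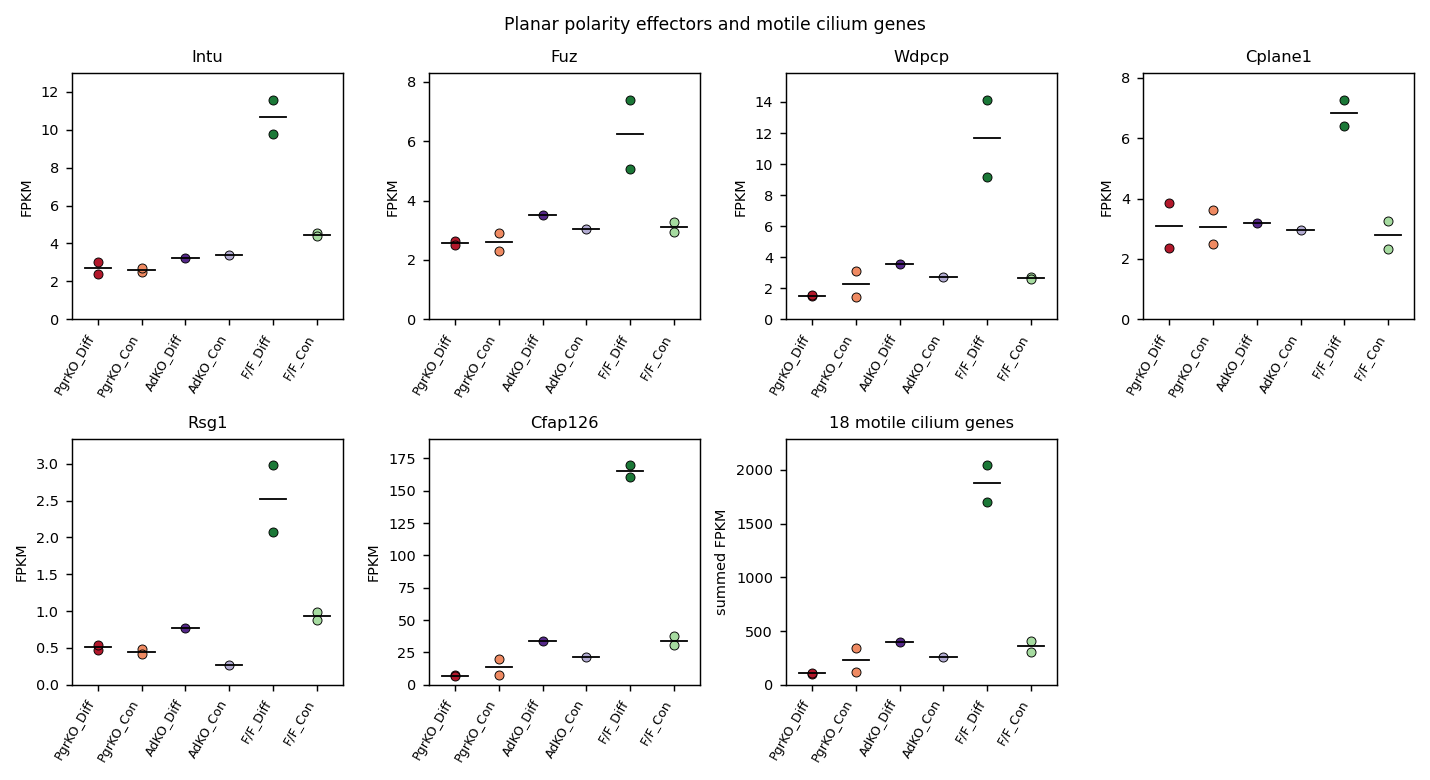
FPKM of the 5 CPLANE genes and Cfap126 and the summed FPKM of 18 motile cilium genes (y axes, linear, from 0) in each library (points) by group (x axis), with group means as lines. The F/F_Diff libraries are highest in every panel, with Cfap126 at 161 and 170 FPKM there and at most 37.3 FPKM in any other library.

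Of the 6 Wnt ligands tested, Wnt11, which directs cell movements through this pathway in zebrafish and frog embryos, was at 0.911 and 1.55 FPKM in PgrKO_Diff, against 14.2 and 18.7 FPKM in F/F_Diff, a fall of 2.97 (adjusted p = 0.00449 from limma). With 5.32 and 3.26 FPKM in F/F_Con, it also rose in F/F_Diff relative to these (1.74, adjusted p = 0.0282 from limma), a call named after its values were seen and lost without any 1 F/F library. Wnt5a, the ligand of Ror2, was at 35.5 and 16.1 FPKM in PgrKO_Con, against 3.64 and 6.22 FPKM in F/F_Con (log2 difference 2.11, adjusted p = 0.104 from limma). Wnt7a, a ligand that patterns the mouse female reproductive tract, was at 4.67 and 3.47 FPKM in PgrKO_Diff, against 17.3 and 25.9 FPKM in PgrKO_Con (−2.14, adjusted p = 0.437 from limma), and Wnt5b at 1.54 and 0.579 FPKM, against 5.19 and 2.04 FPKM (−1.12, adjusted p = 0.600 from limma, and −0.60 without PgrKO_Con replicate 1). Their groups did not overlap, yet none of these 3 passed. Over all 10 libraries Wnt7a was the only one of the 35 whose Diff libraries all lay below the Con libraries, as Celsr2 did among the members.

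Among the other core genes and receptors, Prickle3, another Prickle paralog, was at 1.77 and 1.70 FPKM in F/F_Diff, against 3.42 and 3.77 FPKM in F/F_Con, and fell by 0.75 (adjusted p = 0.0177 from limma). In AdKO_Con it was at 1.92 FPKM (−0.65 relative to F/F_Con, adjusted p = 0.157 from limma). Ankrd6, the vertebrate counterpart of the fly core protein Diego, was at 3.53 FPKM in AdKO_Con, against 6.87 and 8.10 FPKM in F/F_Con (−0.90, adjusted p = 0.131 from limma). Fzd7, a Wnt receptor, was at 1.88 and 2.56 FPKM in PgrKO_Con, against 8.32 and 11.1 FPKM in F/F_Con (−1.73, adjusted p = 0.0785 from limma). With 1 library left out Fzd7 differed by −1.92 to −1.54. At 2.32 and 2.16 FPKM in F/F_Diff, it also fell by 1.71 there relative to F/F_Con (adjusted p = 0.0255 from limma), a call named after its values were seen and lost without any 1 F/F library (adjusted p = 0.0773 to 0.136).

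Between AdKO_Diff and AdKO_Con, where each group is 1 library and no test was made, the log2 differences of the members beside Celsr2 (−1.01) ran from −0.39 (Vangl2) to 0.62 (Prickle1). That of Intu was −0.06 and that of Cfap126 was 0.62.

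The genes whose values were most like those of each member over the 10 libraries were ranked by Pearson's r of log2(FPKM + 1) among 9421 genes with at least 5 FPKM in a group (9422 for Fzd3 and Prickle2). With so few points that share groups and libraries, and so many genes ranked, high values of r are a description only. Celsr2 was most like Knop1 (r = 0.986), Cdk4 (0.960) and Inava (0.948), and Dvl1 was most like Stx12 (0.989), Col4a1 (0.984) and Col4a2 (0.983). For Prickle1 they were Snai2 (0.961), Loxl2 (0.950) and Clec14a (0.948), and for Prickle2 they were Sod2 (0.950), Mtmr12 (0.946) and Dmpk (0.941). Vangl2 was most like Rnf217 (0.955), Ncam1 (0.927) and Gas2l3 (0.925), and Vangl1 was most like Arfgap2 (0.911), Acad8 (0.897) and Traf3ip2 (0.896). Celsr1 had Prdx4 (0.953), Suds3 (0.926) and Wbp1 (0.925), Fzd3 had S100pbp (0.953), Mapk7 (0.948) and Tkfc (0.936), and Fzd6 had Wwp2 (0.918), Slc35b3 (0.915) and Mrtfb (0.908). Cdk4 drives entry into the cell cycle, Col4a1 and Col4a2 encode basement membrane collagen, and Snai2 is a transcription factor of mesenchymal cells.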

How the data were processed

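The deposited table holds FPKM for 10 organoid libraries, which the authors made from paired reads of Vazyme libraries. The submitters' processing notes name HISAT2, edgeR and mm10 without versions, whereas Tophat2 and RPKM stand in the paper's methods, and whether counting used strand is not given in the sources used here. Values are the authors' own, with no replicates pooled. Symbols were placed through GENCODE M21, where 54047 of the 54152 lines matched 1 gene model, and 1 repeated symbol, Tnfrsf12a, was left out. Reads recovered from FPKM, the length of the exons and the library size were whole within 0.01 read for at least 99.991% of the non-zero values of each library, and these reads served as the alternative test with voom. They show counting depth only and not molecules.

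Values were taken as log2(FPKM + 1) and fitted in R 4.3.3 by limma 3.58.1 (variance prior with a trend), 2-sided, in 1 fit of the 10 libraries with a term per group. Genes below a mean of 1 FPKM in each of the 6 groups were left out, and p-values were adjusted by Benjamini and Hochberg over 15816 genes. Fold changes are on the log2(FPKM + 1) scale, which understates low genes. A lone AdKO library was assumed to vary like the other groups. The pipeline was tested on simulated data. Exon models of Vangl1, Fzd6 and Dvl1 share 8, 152 and 36 bases with a gene on the opposite strand (Gm16160, Gm26704, Tas1r3), and that of Celsr3 shares 65 bases with Gm23156 on its own strand, so reads there cannot be told apart.

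The members and lists were chosen with earlier results of these data known. Named were all members, Cdc42, the 4 other polarity genes with the smallest p among those that passed in a comparison (2 where none passed), the 3 genes most like each member, and the 2 most abundant markers of lists described, with exceptions stated in the text. Dnai1 was read under its older symbol. Alternatives were a pseudocount of 0.1, no filter, a mean of at least 5 FPKM, quantile-normalized and median-scaled values, an unmoderated linear model, fits of the groups compared only or without AdKO libraries, a replicate block, each library left out, voom, and an adjusted p under 0.01. Chosen after seeing the data were a fit without PgrKO_Con and PgrKO_Diff replicate 2 and a block with crossed numbers in PgrKO. Figures used matplotlib 3.10.9, numpy 2.4.6 and pandas 2.3.3 in Python 3.11.15.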

Additional observations from a re-analysis of the deposited data

Results flagged for a closer look

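Cfap126 responded differently to E2 and DBZ in the 2 genotypes by a test of that difference: the log2 response was lower by 3.02 in PgrKO than in F/F organoids (−3.02, standard error 0.55, adjusted p = 0.0461 from limma). It was at 7.40 and 6.40 FPKM in PgrKO_Diff and 7.61 and 19.8 FPKM in PgrKO_Con, and at 161 and 170 FPKM in F/F_Diff and 37.3 and 30.7 FPKM in F/F_Con. The adjusted p ran from 0.0306 to 0.160 over the alternatives. No member of the core set had such a difference between responses. With 1 or 2 libraries in a group, single libraries could not be tested for standing far from their group.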

How the results depend on the processing

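With 2 libraries a group, both member calls depended on the processing. Celsr2 in F/F_Diff against F/F_Con kept its direction in every fit but did not pass with no filter (−1.55, adjusted p = 0.0546), an unmoderated linear model (−1.55, adjusted p = 0.0759), the PgrKO libraries of replicate 2 left out (−1.55, adjusted p = 0.0595) or a threshold of 0.01 (−1.55, adjusted p = 0.0229), and ranged from −1.97 to −1.14 with 1 library left out, all from limma. Dvl1 in PgrKO_Diff against F/F_Diff did not pass with only the groups compared (0.81, adjusted p = 0.0688), the PgrKO libraries of replicate 2 left out (0.70, adjusted p = 0.103) or a threshold of 0.01 (0.81, adjusted p = 0.0154), and ranged from 0.62 to 1.00 with 1 library left out. The cause was not tested.

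The 1 member called in F/F_Diff against F/F_Con became 0 with no filter, the unmoderated model, a threshold of 0.01 or the PgrKO libraries of replicate 2 left out, 2 with voom (Prickle2 added), and 0 to 2 with 1 library left out. The 1 called in PgrKO_Diff against F/F_Diff became 0 with only the groups compared, a threshold of 0.01 or those libraries left out, 2 with a pseudocount of 0.1, a mean of at least 5 FPKM, quantile normalization, the AdKO libraries left out or the replicate block (Prickle1 added each time), and 0 to 4 with 1 library left out. In the other 5 comparisons it was 0 under every alternative. Of the other polarity genes, the 10 called in F/F_Diff against F/F_Con became 5 with no filter, 3 with the unmoderated model, 0 at a threshold of 0.01 and 0 to 10 with 1 library left out. The 5 CPLANE genes among them became 2, 2 and 0, then 3 with only the groups compared or the PgrKO libraries of replicate 2 left out, and 0 to 5. The 16 called in PgrKO_Diff against F/F_Diff became 5 at a threshold of 0.01, 6 with only the groups compared, 8 without those libraries and 5 to 16 with 1 library left out, and the 5 CPLANE genes became 3 in each of these and 3 to 5.

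Over all genes, the 3055 calls in F/F_Diff against F/F_Con became 240 at a threshold of 0.01 and 1367 unmoderated, and the 4289 in PgrKO_Diff against F/F_Diff became 1628 at 0.01 and 2349 with only the groups compared. The difference of responses of Celsr2 changed sign without F/F_Con replicate 1 (−0.16) or PgrKO_Diff replicate 1 (−0.02), within −0.16 to 0.66 over the libraries left out. Same-numbered libraries deviated together only in PgrKO (correlation 0.528, the other pairs −0.171 to −0.038), so the numbers were not taken as pairs. With the replicate block the calls over all genes were 2434, 3792 and, for the difference of responses, 0 (697 without it), and Cfap126 no longer passed there (adjusted p = 0.0792 from limma). With crossed numbers in PgrKO they were 3258, 4525 and 617. Voom on recovered reads gave 3048, 4125 and 0. The block also ended the calls of Intu and Cfap126 in AdKO_Diff against F/F_Diff (adjusted p = 0.0715 and 0.102 from limma). Apart from single libraries left out, calls over all genes ranged from 0 to 1297 in AdKO_Diff against F/F_Diff (975 as reported), 0 to 497 in AdKO_Con against F/F_Con (8), 0 to 267 in PgrKO_Con against F/F_Con (98), 0 to 881 for the difference of responses (697) and 0 to 11 in PgrKO_Diff against PgrKO_Con (0). Leaving out an AdKO library gave no value for its own comparison. Depth limited Celsr3 (5 to 26 reads a library) and Prickle2 (19 to 209 reads).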

Other observations

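Some further polarity genes that passed are given here, named after their values were seen and not as a group. Between PgrKO_Diff and F/F_Diff, 2 of 5 modulators (Sec24b and Gipc1) were higher, and of 7 effectors Rhoa was higher and Cfap126 lower, beside 27.1% of all genes called. Sec24b, a vesicle coat protein that sorts Vangl2 in the mouse, was at 38.0 and 34.8 FPKM in PgrKO_Diff, against 25.3 and 21.9 FPKM in F/F_Diff. Gipc1, a trafficking adaptor, was at 71.5 and 63.0 FPKM, against 46.3 and 40.1 FPKM, and Rhoa, the GTPase that acts on the actin cytoskeleton, at 43.5 and 46.2 FPKM, against 34.3 and 31.4 FPKM. All 3 were higher in PgrKO_Diff with no overlap, while Vangl2 itself was at 6.74 and 6.42 FPKM in PgrKO_Diff, against 5.92 and 5.72 FPKM in F/F_Diff, and did not pass. Wnt7b was lower, at 7.35 and 11.1 FPKM in PgrKO_Diff, against 46.6 and 32.4 FPKM in F/F_Diff, as was Fjx1, the counterpart of a fly kinase of the Fat and Dachsous branch, at 0.861 and 1.06 FPKM, against 2.33 and 2.05 FPKM. Daam1, a formin that binds Dvl, was at 10.6 and 9.99 FPKM in F/F_Diff, against 6.25 and 6.73 FPKM in F/F_Con, and passed there. Without F/F_Diff replicate 2 none of the 6 calls of Sec24b, Gipc1, Rhoa, Wnt7b, Fjx1 and Daam1 remained, and the 5 between PgrKO_Diff and F/F_Diff were also lost without PgrKO_Diff replicate 1. Of the 10 fits with 1 library left out, the call was lost in 8 for Rhoa, 6 each for Fjx1 and Daam1, 3 each for Sec24b and Wnt7b and 2 for Gipc1.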
